A study of Homo sapiens with 12 samples.

Results

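The 10 genes described here comprise 4 of G protein-coupled receptors (*CCR1*, *CCR10*, *CXCR4* and *S1PR1*) and 6 of regulators of G protein signalling (*RGS1*, *RGS2*, *RGS10*, *RGS14*, *RGS16* and *RGS19*), out of 63152 gene identifiers in the series. They were chosen by symbol around *CCR1* and *RGS16*, which were selected on their measured fold changes against DMSO in these libraries. The levels and changes of these 2 genes are therefore a description, with no test. Of the 10 genes 9 passed the filter on low counts, and *S1PR1* did not. Transcripts were measured by 3′ mRNA sequencing (QuantSeq) in OPM2, an established human cell line from multiple myeloma, a cancer of plasma cells. The 4 groups of 3 libraries, described in the labels as biological triplicates, were 2 h of DMSO vehicle, 250 nM JQ1 (an inhibitor of the BET bromodomain proteins), 1 µM BKM120 (a PI3K inhibitor) and 250 nM 18DS (a chimeric inhibitor of PI3K and BET proteins). All values are of 1 cell line at 1 time, and no group received JQ1 and BKM120 together.

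Chemokine receptors and the sphingosine 1-phosphate receptors sit in the cell surface and pass their signal to heterotrimeric G proteins, chiefly of the Gi class, which direct migration and adhesion. RGS proteins speed up the hydrolysis of GTP on the alpha subunit and so shorten the signal. In plasma cells and myeloma, CXCR4 holds cells in the bone marrow, CCR1 answers chemokines made by myeloma and marrow cells, and CCR10 marks plasma cells that home to mucosa and skin.

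Total counts were 5501895 to 7692013 per library. All 8 plasma cell markers (*SDC1*, *TNFRSF17*, *XBP1*, *PRDM1*, *IRF4*, *CD38*, *MZB1* and *POU2AF1*) passed the filter, and their summed level in CPM (counts scaled to library size) lay between 2190 and 2270 in DMSO, 2050 and 2100 in BKM120, 1710 and 1760 in JQ1, and 1540 and 1720 in 18DS. The markers did not all move with the sum. At an edgeR adjusted p under 0.05, 5 of the 8 were lower with JQ1, 2 with BKM120 and 5 with 18DS, against 3.45%, 4.14% and 11.0% of all tested genes. With BKM120 1 (*TNFRSF17*) was higher, against 4.07% of all tested genes. The 6 T and NK cell markers summed to at most 1.44 CPM, with 2 of them at 0 in every library. Monocytes also carry CCR1. Of 6 myeloid markers 1 passed the filter and 1 (*FCGR3A*) was at 0 in every library, and together they summed to 1.32 to 3.53 CPM in DMSO, 1.26 to 3.34 with BKM120, 0.727 to 1.43 with JQ1 and 1.53 to 3.98 with 18DS. Replicate 2 of 18DS had a score of 30.5 on principal component 3, against -14.1 and -10.7 for replicates 1 and 3, so many 18DS results are also given without it.

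The 250 bases before the start of *CCR1* and *RGS16*, which were lower with all 3 compounds, and of *RGS2* and *RGS1*, each higher with some of them, are shown because the results turn on these genes. They are printed 5′ to 3′ on the gene's strand, from RefSeq on GRCh38.p14, in lower case. Capitals mark matches to 6 short motifs searched on both strands, namely CACGTG (the E-box), TGTTTAC (forkhead factors), CCACCC (KLF factors), TGANTCA (AP-1), TATAAA (the TATA box) and TGACGT (the core of the cyclic AMP response element).
CCR1 (chr3:46208314-46208563, minus strand): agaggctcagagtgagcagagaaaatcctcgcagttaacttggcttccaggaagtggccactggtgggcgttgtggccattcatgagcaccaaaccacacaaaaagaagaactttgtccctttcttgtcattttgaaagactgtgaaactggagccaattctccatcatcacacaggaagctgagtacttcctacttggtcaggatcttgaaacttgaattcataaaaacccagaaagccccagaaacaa
RGS16 (chr1:182604390-182604639, minus strand): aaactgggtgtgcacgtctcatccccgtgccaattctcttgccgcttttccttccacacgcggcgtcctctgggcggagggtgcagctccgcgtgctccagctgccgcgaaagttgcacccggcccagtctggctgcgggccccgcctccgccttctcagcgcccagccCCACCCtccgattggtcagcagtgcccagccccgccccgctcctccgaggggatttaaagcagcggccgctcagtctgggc
RGS2 (chr1:192808789-192809038, plus strand): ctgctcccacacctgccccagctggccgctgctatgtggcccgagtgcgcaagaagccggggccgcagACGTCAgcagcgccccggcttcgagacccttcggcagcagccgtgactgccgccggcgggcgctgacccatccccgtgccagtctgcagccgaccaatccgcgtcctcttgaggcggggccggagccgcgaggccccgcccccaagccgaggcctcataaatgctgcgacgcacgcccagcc
RGS1 (chr1:192575523-192575772, plus strand): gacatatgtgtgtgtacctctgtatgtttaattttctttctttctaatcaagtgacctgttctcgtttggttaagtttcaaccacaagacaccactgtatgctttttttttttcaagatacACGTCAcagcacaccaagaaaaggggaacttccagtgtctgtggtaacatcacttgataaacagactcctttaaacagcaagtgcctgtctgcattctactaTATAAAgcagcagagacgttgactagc

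The *CCR1* window held none of the 6 motifs, and its GC content was 45.2%, below the lower quartile of 46.4% over 35116 RefSeq promoter windows. The *RGS16* window (68.4% GC) held 1 CCACCC, which begins 81 bases before the start and occurs in 31.3% of all windows. The *RGS2* window (72.8% GC) held 1 TGACGT on the minus strand, 182 bases before the start, and the *RGS1* window (39.2% GC) held 1 on the minus strand at 129 bases, a motif found in 7.1% of windows. The *RGS1* window also held TATAAA 27 bases before the start (10.7% of windows). Of the 10 genes 9 had a window, and *CCR10* had none in the table. The KLF motif was also found in windows of *CXCR4*, *S1PR1* and *RGS19*, TATAAA in 1 window of *CXCR4*, the E-box in 1 window of *RGS19* (6.34% of all windows), and none of the 6 in the windows of *RGS10* and *RGS14*. A match describes the letters only, and the series did not measure binding.

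*CCR1* (ENSG00000163823), the receptor gene for CCL3 and CCL5, was lower with every compound. Its level was 97.2, 84.8 and 90.9 CPM in the 3 DMSO libraries. With JQ1 the libraries held 15.9, 18.0 and 18.6 CPM, and with 18DS 12.9, 11.5 and 11.6 CPM. BKM120 left an intermediate level of 38.7, 46.2 and 43.2 CPM. The order was therefore DMSO, BKM120, JQ1 and 18DS, and no group overlapped its neighbour. Between groups of a bulk sample, fewer cells with a transcript and less of it per cell cannot be told apart. The fitted log2 fold change against DMSO was -2.37 (SE 0.11) with JQ1, -1.09 (SE 0.10) with BKM120 and -2.91 (SE 0.12) with 18DS, which are levels 5.18-fold, 2.13-fold and 7.52-fold lower. Without 18DS replicate 2 the last value was -2.88. The summed myeloid markers, at a few CPM in all groups, were lowest in JQ1 and not in 18DS. Their part in the *CCR1* values was not tested.

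*RGS16* (ENSG00000143333) encodes a small RGS protein that acts on Gi and Gq alpha subunits. It held 45.1, 34.8 and 41.5 CPM in DMSO, against 14.7, 18.1 and 15.8 CPM with JQ1. BKM120 libraries held 23.6, 22.2 and 19.5 CPM, and 18DS libraries 19.2, 16.1 and 15.3 CPM. Every treated library was below every DMSO library, the BKM120 libraries lay just above those of 18DS, and the JQ1 and 18DS libraries overlapped. The log2 fold change was -1.32 (SE 0.13) with JQ1, -0.89 (SE 0.13) with BKM120 and -1.26 (SE 0.13) with 18DS, or -1.22 without 18DS replicate 2. *CCR1* thus had 3 separate treated levels, while *RGS16* had treated levels between 14.7 and 23.6 CPM.

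**Figure D1:**
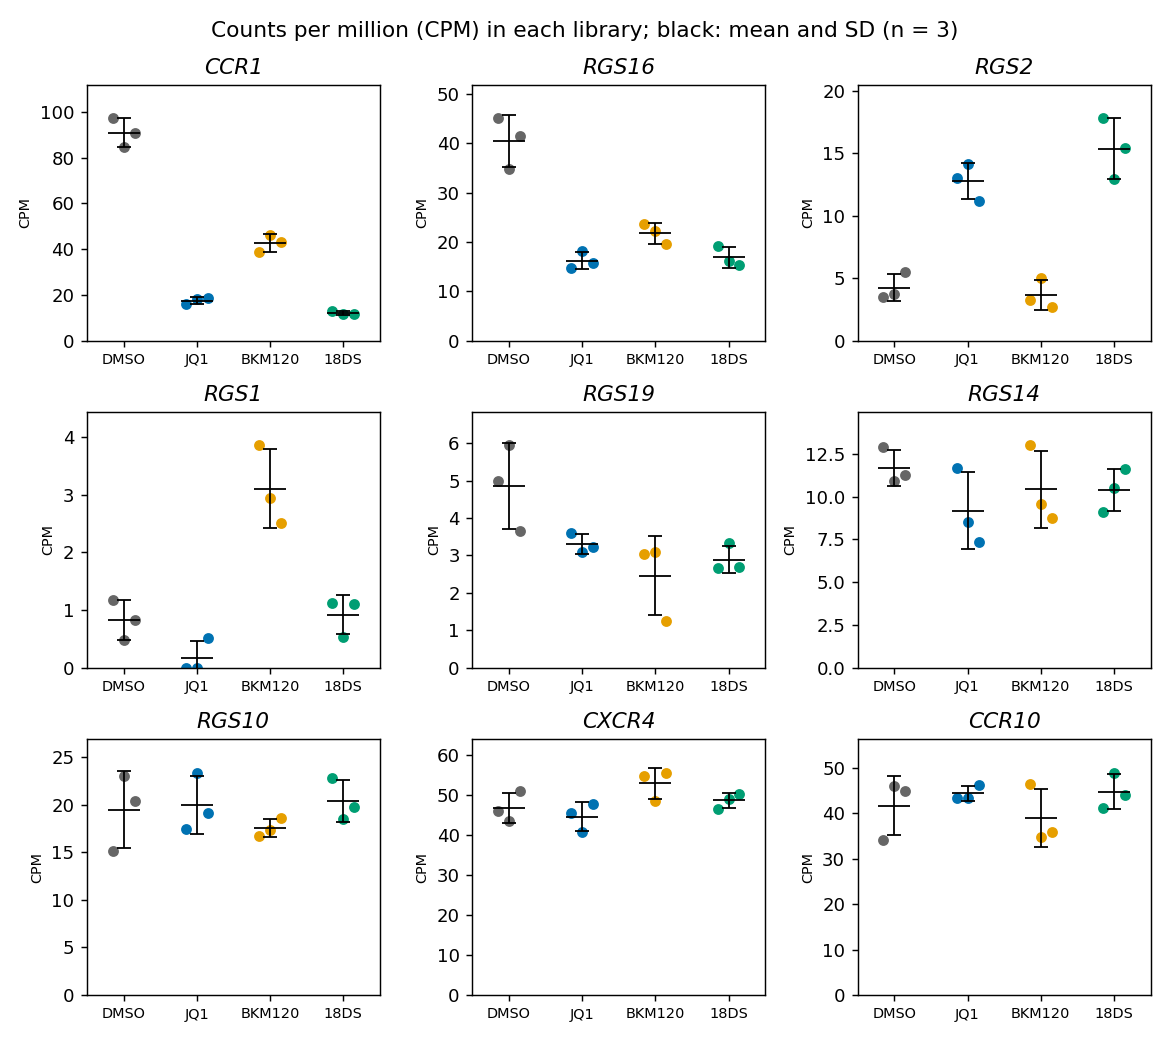
Level of each of the 9 genes that passed the filter, in CPM, in every library (points, in replicate order) of the 4 groups, with the group mean and SD (black, n = 3). *CCR1* and *RGS16* were lower in all 9 treated libraries than in DMSO, and *RGS2* was higher with JQ1 and 18DS. *RGS1* was higher with BKM120, the only group through which it passed the filter.

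*RGS2* (ENSG00000116741), which encodes a regulator that prefers the Gq alpha subunit, rose with JQ1 and with 18DS (called at a Benjamini-Hochberg p under 0.05, adjusted over all genes tested). It held 3.52, 3.69 and 5.48 CPM in DMSO. JQ1 libraries held 13.0, 14.1 and 11.2 CPM and 18DS libraries 17.8, 12.9 and 15.4 CPM, all above the DMSO range. The log2 fold change was 1.59 with JQ1 (SE 0.22, edgeR adjusted p = 4.41e-06) and 1.88 with 18DS (SE 0.22, edgeR adjusted p = 4.92e-08). Without 18DS replicate 2 the latter was 1.99 (edgeR adjusted p = 4.21e-09). Over 15 other settings its adjusted p ranged from 3.61e-10 to 0.000183 with JQ1 and from 8.07e-16 to 4.24e-06 with 18DS. With BKM120 the libraries held 3.21, 5 and 2.69 CPM, which overlapped DMSO (-0.19, 95% confidence interval -0.74 to 0.37).

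*RGS1* (ENSG00000090104), an RGS gene of activated B cells whose protein dampens chemokine signals, was near the floor of detection. The DMSO libraries held 8, 3 and 5 counts and the JQ1 libraries 0, 0 and 4. BKM120 libraries held 24, 20 and 14 counts, all above DMSO, and 18DS libraries 8, 3 and 7. In CPM the means were 0.829 ± 0.347 in DMSO, 0.172 ± 0.298 in JQ1, 3.10 ± 0.686 in BKM120 and 0.917 ± 0.340 in 18DS (SD, n = 3). *RGS1* passed the filter only through its 3 BKM120 libraries, so among tested genes it had to be high there, and its BKM120 value is a description with no test. That log2 fold change was 1.87 (SE 0.49), and 1.60 to 2.22 over 13 other settings. Against DMSO the JQ1 value was -1.92 (SE 0.81, adjusted p = 0.182), and without JQ1 replicate 3, the only JQ1 library with counts, it was -5.41 (adjusted p = 0.0395), a fit against 2 libraries at 0. The 18DS value was 0.15 (SE 0.60, adjusted p = 0.889), or 0.41 without 18DS replicate 2.

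*RGS19* (ENSG00000171700), whose protein binds Gi3 and related alpha subunits, was lower in all treated groups but passed the test in none. It held 4.99, 5.94 and 3.65 CPM in DMSO and 3.60, 3.08 and 3.23 CPM with JQ1. BKM120 libraries held 3.05, 3.09 and 1.25 CPM and 18DS libraries 2.67, 3.32 and 2.68 CPM. No treated library reached the lowest DMSO library. The log2 fold change was -0.56 (SE 0.30, edgeR adjusted p = 0.332) with JQ1, -0.95 (SE 0.31, edgeR adjusted p = 0.0527) with BKM120 and -0.76 (SE 0.31, edgeR adjusted p = 0.0736) with 18DS. Without 18DS replicate 2 the last value was -0.86 (edgeR adjusted p = 0.0831). Library totals as the only scaling took the BKM120 and 18DS values past the threshold (adjusted p = 0.0416 and 0.047). So did leaving out DMSO replicate 3 (0.0384 and 0.0489), and, for BKM120, leaving out BKM120 replicate 2 (0.039).

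*RGS14* (ENSG00000169220) and *RGS10* (ENSG00000148908) encode regulators that act on Gi alpha subunits, and RGS14 also holds inactive Gi through a second domain. *RGS14* held 10.9 to 12.9 CPM in DMSO, 7.36 to 11.7 with JQ1, 8.77 to 13.0 with BKM120 and 9.13 to 11.6 with 18DS. Its log2 fold changes were -0.37 (95% confidence interval -0.76 to 0.03), -0.16 (-0.55 to 0.22) and -0.17 (-0.56 to 0.21). *RGS10* held 15.1 to 23.0, 17.5 to 23.4, 16.7 to 18.6 and 18.5 to 22.8 CPM in the same order of groups. Its log2 fold changes were 0.04 (-0.27 to 0.34), -0.15 (-0.46 to 0.16) and 0.07 (-0.23 to 0.38). The ranges of both genes overlapped between DMSO and each treated group.

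*CXCR4* (ENSG00000121966), the receptor gene for CXCL12, held 46.0, 43.4 and 50.8 CPM in DMSO and 45.4, 40.6 and 47.6 CPM with JQ1. BKM120 libraries held 54.6, 48.4 and 55.5 CPM and 18DS libraries 46.5, 49.0 and 50.2 CPM. All treated groups overlapped DMSO, and the 95% confidence intervals of the log2 fold change were -0.27 to 0.14 with JQ1, -0.02 to 0.38 with BKM120 and -0.15 to 0.26 with 18DS. *CCR10* (ENSG00000184451), the receptor gene for CCL27 and CCL28, held 34.2, 46.1 and 44.9 CPM in DMSO and 43.5, 43.5 and 46.2 CPM with JQ1. BKM120 libraries held 46.4, 34.9 and 35.8 CPM and 18DS libraries 41.3, 49.0 and 44.1 CPM. Its intervals were -0.14 to 0.33, -0.33 to 0.15 and -0.13 to 0.34. For both receptors these intervals leave out changes of the size of the *CCR1* values.

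*S1PR1* (ENSG00000170989), whose receptor draws lymphocytes toward sphingosine 1-phosphate in blood, had 0 counts in all 12 libraries. A count of 0 allows up to 3 counts, or 0.387 to 0.544 CPM per library, so a difference was not detectable at this depth. These limits cover counting error only.

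Of the 8 genes other than *CCR1* and *RGS16*, 7 were tested in each comparison. With JQ1 1 rose (*RGS2*) and 0 fell, where edgeR called 6.08% of the 13180 tested genes (2.63% higher, 3.45% lower). With BKM120 edgeR called 1 higher and 0 lower, against 8.21% of all tested genes (4.07% higher, 4.14% lower). That 1 was *RGS1*, tested only through its BKM120 libraries, so nothing is read from the count. With 18DS 1 rose (*RGS2*) and 0 fell, against 21.0% (9.96% higher, 11.0% lower). At an unadjusted p under 0.05 the counts were 2, 2 and 2 of 7, against 17.9%, 23.4% and 33.6% of all tested genes. The median log2 fold change of the 7 was -0.06, -0.15 and 0.07, and that of all tested genes was 0.003, 0 and -0.003. Groups did not overlap for 2 of the 7 genes in each comparison with DMSO, where 25.3%, 28.2% and 35.3% of tested genes did not. The BKM120 counts by unadjusted p and by overlap also include *RGS1*, and so does the BKM120 median. Nothing is read from these BKM120 values either. The 3 comparisons share the DMSO libraries.

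**Figure D2:**
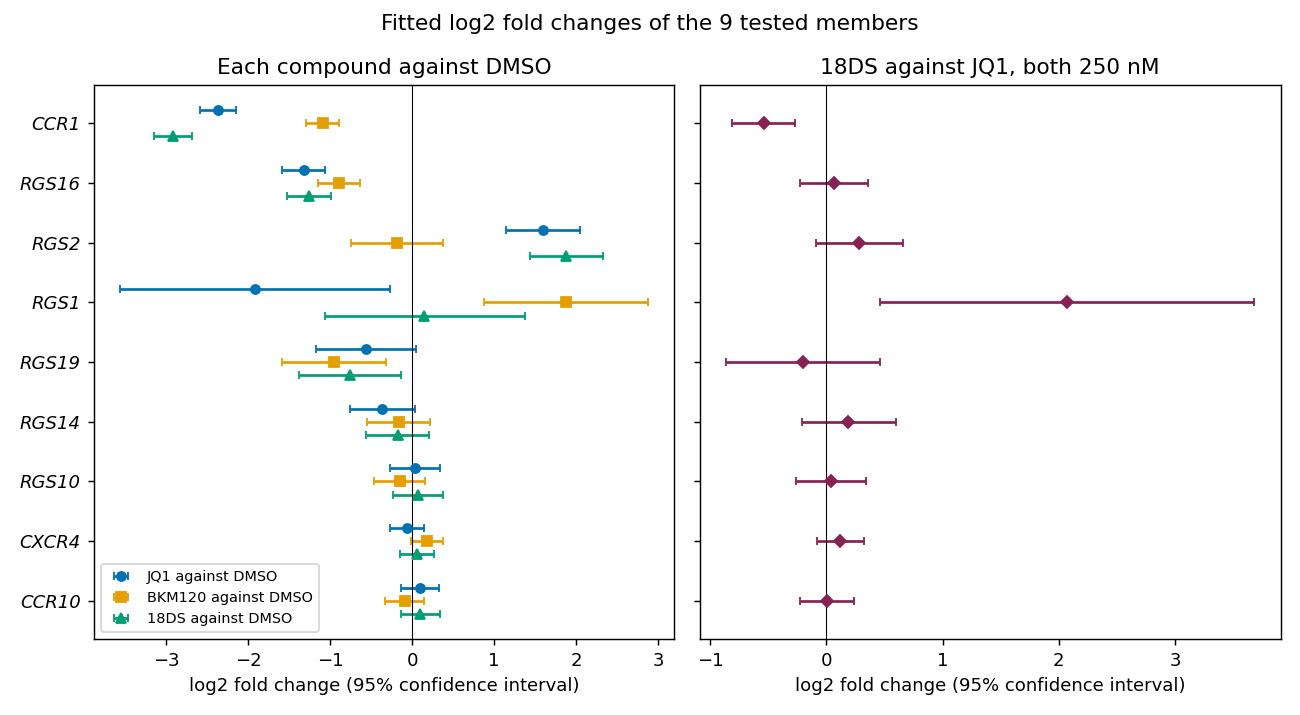
Fitted log2 fold changes (symbols) with 95% confidence intervals (bars) of the 9 tested genes, for each compound against DMSO (left) and for 18DS against JQ1 at 250 nM (right). *CCR1* lay at -2.37, -1.09 and -2.91 on the left and at -0.54 on the right, and *CXCR4* and *CCR10* lay near 0 throughout. The bars of *CCR1* and *RGS16*, selected on their changes, and of *RGS1* with BKM120 are a description with no test.

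18DS and JQ1 were given at the same dose and time, so their libraries were compared directly. *CCR1* and *RGS16* were selected on changes in these same libraries, so their differences here are a description with no test. *CCR1* was lower with 18DS, with a log2 difference of -0.54 (SE 0.13). Its means were 12 ± 0.768 and 17.5 ± 1.38 CPM (SD, n = 3), with no overlap of the libraries (as for 24.0% of tested genes). Without 18DS replicate 2 the difference was -0.50. *RGS16* differed by 0.07 (SE 0.15), or 0.11 without 18DS replicate 2. Of the other 7 genes 0 passed edgeR's test, where 4.16% of tested genes did (2.37% higher, 1.78% lower). Of these 7, 1 had an unadjusted p under 0.05 (*RGS1*, against 19.3% of all tested genes). DESeq2 called 0 but gave no adjusted p for *RGS1*, *RGS2*, *RGS14* and *RGS19*, and limma-voom called 1. *RGS1* was higher with 18DS by 2.07 (SE 0.79, edgeR adjusted p = 0.13), at 18 counts against 4 in all, and limma-voom called it (adjusted p = 0.0381). *RGS2* differed by 0.28 (-0.09 to 0.66) and *CXCR4* by 0.12 (-0.08 to 0.32). The intervals for *CCR10* (-0.23 to 0.24), *RGS10* (-0.26 to 0.34), *RGS14* (-0.21 to 0.60) and *RGS19* (-0.86 to 0.46) also held 0. Of the 13180 tested genes 548 passed this comparison, or 215 without 18DS replicate 2. BKM120 was given at another dose than 18DS, so their values stand side by side above and were not tested against each other.

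The wider families were read from lists of family genes. Of 23 chemokine receptor genes 4 passed the filter, *CCR1*, *CCR10*, *CXCR4* and *CXCR5*, and no other had more than 9 counts in a library. *CXCR5*, the receptor gene that guides B cells to follicles, rose with 18DS by 0.78 (SE 0.28, edgeR adjusted p = 0.0418). Its mean was 3.86 ± 0.784 CPM in DMSO and 6.70 ± 2.52 CPM with 18DS (SD, n = 3). This call was lost without 18DS replicate 2 (0.51, adjusted p = 0.27), without 18DS replicate 3 (0.103) and without DMSO replicates 1 (0.166) or 2 (0.0907), and also with DESeq2 (0.0748) and limma-voom (0.0865). Of 44 listed chemokine genes 34 matched an identifier, and 2 of these passed. Those without a match, among them *CCL3*, *CCL4*, *CCL14*, *CCL15* and *CCL23*, could not be read. *CCL27*, a ligand gene of CCR10, held 26 counts in DMSO, 51 with JQ1, 20 with BKM120 and 67 with 18DS over 3 libraries. It reached the filter minimum in 7 libraries, among them all of JQ1 and 18DS, where it is high, and none of BKM120. Its log2 fold change with 18DS, 1.35 (SE 0.42), or 1.49 without 18DS replicate 2, is therefore a description with no test. Without 1 library at a time that value ranged from 0.88 to 1.72. Of 13 lysophospholipid and related receptor genes 2 passed. *P2RY8*, a receptor gene that confines B cells through G13, fell with JQ1 (-0.51, SE 0.11, edgeR adjusted p = 0.00279), BKM120 (-0.39, SE 0.11, adjusted p = 0.025) and 18DS (-0.46, SE 0.11, adjusted p = 0.0025), from 44.3 ± 2.82 CPM in DMSO to 31.1 ± 0.753, 33.8 ± 4.22 and 32.2 ± 3.71 CPM (SD, n = 3). The BKM120 call was lost with upper-quartile scaling (0.0507) and without any of DMSO replicates 2 and 3 and BKM120 replicates 1 and 3 (0.0623 to 0.171), and without 18DS replicate 2 the 18DS value was -0.55. Of 15 sphingosine 1-phosphate metabolism genes 8 were tested, and their smallest edgeR adjusted p was 0.133 with JQ1 (*SPHK2*, -0.33), 0.328 with BKM120 (*PLPP3*, 0.77) and 0.0891 with 18DS (*SPNS2*, -0.42).

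Of 21 RGS genes 11 were tested. *RGS16* was chosen for its change, and *RGS1*, *RGS3* and *RGS17* were tested only through groups where they are high. No count of calls is drawn from these genes. Among the others *RGS2* passed the test with JQ1 and 18DS, as given above. *RGS20*, at -0.60, -0.49 and -0.65, did not pass the test with any compound. *RGS17* held at most 1.45 CPM in a DMSO library, under the filter minimum of 1.63 CPM. It passed the filter through treated libraries alone, so its values of 0.88, 0.77 and 0.90 are a description with no test. *RGS3*, a regulator of Gi and Gq signals, held 41 counts over the 3 DMSO libraries, 13 with JQ1, 21 with BKM120 and 5 with 18DS. It passed the filter through DMSO and BKM120 libraries alone, so its log2 fold change with 18DS, -2.95 (SE 0.70), or -2.77 without 18DS replicate 2, is a description with no test.

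**Figure D3:**
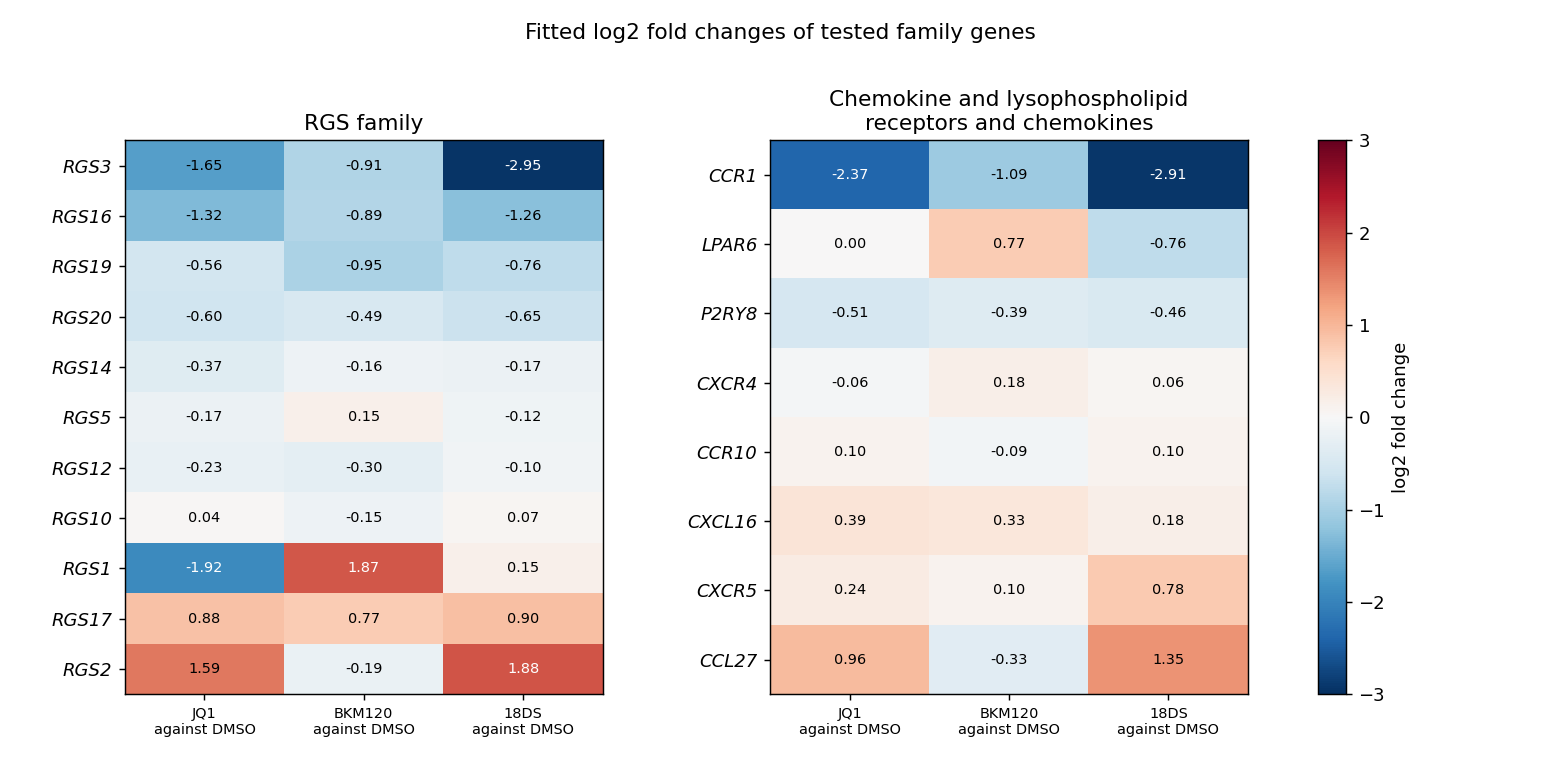
Fitted log2 fold changes against DMSO of the 11 tested RGS genes (left) and of the 8 tested chemokine receptor, lysophospholipid receptor and chemokine genes (right), in colour and as numbers, ordered by the 18DS value. With 18DS, *RGS3* (-2.95), *CCR1* (-2.91) and *RGS16* (-1.26) lay below -1, and *RGS2* (1.88) and *CCL27* (1.35) lay above 1. *RGS3* and *CCL27* had low counts and reached the filter mainly in groups where they are high. *CCR1* and *RGS16* were chosen for their change, so of these values only that of *RGS2* is a test.

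The lists of downstream genes are read against the shares of all tested genes that edgeR called, which were 6.08% with JQ1, 8.21% with BKM120 and 21.0% with 18DS. Of 16 tested G protein subunit genes 1 rose with 18DS, *GNAI2*, a Gi alpha subunit gene (0.48, SE 0.09, edgeR adjusted p = 0.000213). The smallest adjusted p of this list was 0.232 with JQ1 (*GNG4*, 0.31) and 0.156 with BKM120 (*GNAI2*, 0.21). *GNAI2* held 123 ± 19.9 CPM in DMSO, 130 ± 4.42 with JQ1 and 171 ± 13.5 with 18DS (SD, n = 3). It was also higher with 18DS than with JQ1 (0.40, SE 0.09, adjusted p = 0.0116), a call lost without JQ1 replicate 3 (0.0702). Without 18DS replicate 2 these were 0.42 and 0.34 (adjusted p = 0.00111 and 0.0457). Of 6 receptor kinase and arrestin genes 2 fell with JQ1, *GRK6*, whose kinase phosphorylates CXCR4 (-0.34, SE 0.11, adjusted p = 0.0448), and *GRK4* (-0.97, SE 0.29, adjusted p = 0.0365). Both calls were lost under many of the other settings, *GRK6* with the replicate block (0.0596), with DESeq2 (0.0912) and without any 1 of the DMSO libraries or JQ1 replicates 2 and 3 (0.0592 to 0.205), and *GRK4* with DESeq2 (0.0934) and without any 1 of the JQ1 or DMSO libraries (0.0581 to 0.153). *GRK6* was higher with 18DS than with JQ1 (0.39, SE 0.11, adjusted p = 0.0276), a call lost without 18DS replicate 2 (0.116), 18DS replicate 3 (0.0643), JQ1 replicate 2 (0.12) or JQ1 replicate 3 (0.134).

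Against the same shares, 2 of 25 tested effector and chemotaxis genes passed with JQ1 and 3 with 18DS. *RHOH*, a small GTPase gene of blood cells, fell with JQ1 (-1.24, SE 0.17, edgeR adjusted p = 4.38e-06) and 18DS (-1.36, SE 0.18, adjusted p = 4.23e-07). It held 18.5 ± 1.24 CPM in DMSO, 7.79 ± 2.1 with JQ1, 7.10 ± 1.26 with 18DS and 21.6 ± 0.653 with BKM120 (SD, n = 3). *RHOB*, an early response GTPase gene, rose with JQ1 (0.81, SE 0.16, adjusted p = 0.00105) and 18DS (1.03, SE 0.16, adjusted p = 1.1e-05), and *RHOA* rose with 18DS (0.30, SE 0.07, adjusted p = 0.00292). With BKM120 the smallest adjusted p of the 25 was 0.0742 (*ARHGEF12*, 0.24). Of 16 tested adhesion and homing genes 2 fell with JQ1, 1 with BKM120 and 2 with 18DS. *SELPLG*, the selectin ligand gene, fell with JQ1 (-0.45, SE 0.11, adjusted p = 0.00639) and 18DS (-0.61, SE 0.11, adjusted p = 7.94e-05), and the JQ1 call was lost without DMSO replicate 1 (0.0667) or JQ1 replicate 3 (0.0593). *SDC1*, the syndecan gene CD138, fell with JQ1 (-0.35, SE 0.07, adjusted p = 0.00224), BKM120 (-0.31, SE 0.07, adjusted p = 0.00726) and 18DS (-0.34, SE 0.07, adjusted p = 0.00109), and the BKM120 call was lost without BKM120 replicate 3 (0.0684). Without 18DS replicate 2 the 18DS values were -1.24 for *RHOH*, 1.05 for *RHOB*, 0.23 for *RHOA*, -0.54 for *SELPLG* and -0.28 for *SDC1*, each still past the threshold.

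Genes next to the receptor and RGS genes were also read, with neighbours taken from RefSeq on GRCh38.p14. *PLEKHH3*, next to *CCR10*, fell with JQ1 (-0.33, SE 0.09, edgeR adjusted p = 0.0216), BKM120 (-0.92, SE 0.09, adjusted p = 1.66e-08) and 18DS (-0.76, SE 0.09, adjusted p = 1.43e-07), while *CCR10* itself had the values above. The JQ1 call of *PLEKHH3* was lost without DMSO replicates 1 or 2 or JQ1 replicates 1 or 3 (adjusted p = 0.094 to 0.119). *TIAL1*, next to *RGS10*, fell with BKM120 (-0.32, SE 0.10, adjusted p = 0.042) and 18DS (-0.30, SE 0.10, adjusted p = 0.0287), calls that were both lost with upper-quartile scaling (0.087 and 0.0752), with DESeq2 (0.0572 and 0.0624), without DMSO replicates 1 or 2, and without replicates 1 or 3 of the compound (0.0652 to 0.228). Without 18DS replicate 2 the 18DS values were -0.36 for *TIAL1* (edgeR adjusted p = 0.0124) and -0.76 for *PLEKHH3* (edgeR adjusted p = 1.35e-07), both still past the threshold. *CCR3*, beside *CCR1*, had 23 counts in all 12 libraries together and was not tested.

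Among the 9851 genes that averaged 5 CPM or more, those whose log2 CPM over the 12 libraries correlated most with *CCR1* were *DHX33*, an RNA helicase gene (Pearson r 0.981), *HNRNPDL* (0.98) and *SYNCRIP* (0.969), both RNA-binding protein genes, *TECPR1*, an autophagy gene (0.973), and *METTL18*, a histidine methyltransferase gene (0.968). These share the order DMSO, BKM120, JQ1 and 18DS with *CCR1*, over a smaller span. *METTL18* held 13.1 ± 0.268, 10.1 ± 0.941, 3.81 ± 0.339 and 2.42 ± 0.470 CPM (SD, n = 3) in that order, and *DHX33* 18.1 ± 0.323, 16.3 ± 0.141, 13.6 ± 0.663 and 12 ± 0.212 CPM. For *RGS16* the 5 genes were *IRF4*, the plasma cell transcription factor gene (r 0.954), *CCDC86* (0.928) and its antisense partner *CCDC86-AS1* (0.931), *UBL4A* (0.93) and *ADORA2A*, an adenosine receptor gene (0.928). *IRF4* held 302 ± 12.6 CPM in DMSO, 196 ± 3.01 with JQ1, 233 ± 9.91 with BKM120 and 190 ± 4.46 with 18DS (SD, n = 3). The reads of *CCDC86* (947 counts in DMSO) and *CCDC86-AS1* (943) cannot be told apart. These correlations rest on the same 12 libraries in 4 groups and describe likeness only. Without 1 library at a time 3 to 5 of the 5 genes stayed among the 5 most like *CCR1*, and 1 to 5 among those most like *RGS16*.

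**Figure D4:**
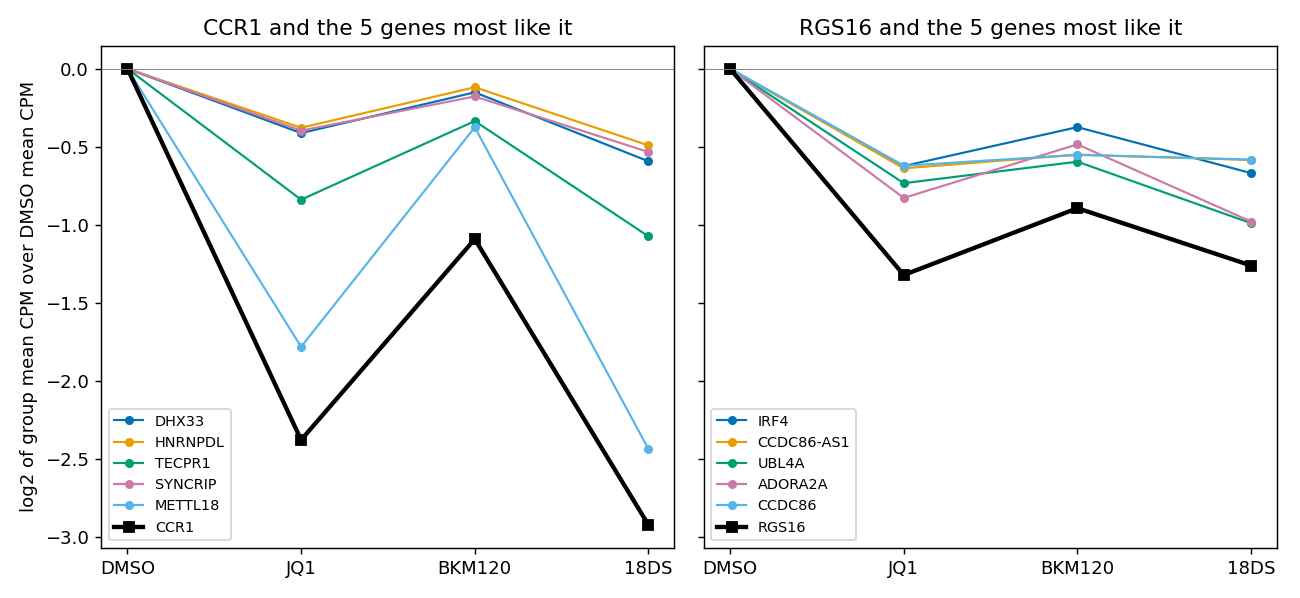
Group mean CPM over the DMSO mean, on a log2 scale, for *CCR1* (left) and *RGS16* (right) in black and for the 5 genes whose levels over the 12 libraries were most correlated with each (colours). Lines only join the 4 groups, and *METTL18* came closest to the span of *CCR1*.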

How the data were processed

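Transcripts of OPM2 cells were measured in 12 libraries. The authors deposited raw counts, whole numbers per Ensembl gene with 1 column per library and no normalization. Per the submitters' processing notes, the build was hg19 and the tools included HISAT2 2.1.0, featureCounts (Subread), cutadapt 1.7, SAMtools 1.9, bcl2fastq 2.17.1.14, limma and FastQC 0.11.5. Annotation release, strand setting and handling of multi-mapping reads: not given in the sources used here, so overlapping genes could share reads.

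Symbols matched 51662 of 63152 identifiers. Genes kept by filterByExpr (minimum count 10, minimum total count 15; 13180 genes) were scaled by TMM and fitted over all 12 libraries with edgeR 4.0.16 (robust quasi-likelihood) in R 4.3.3. Calls used a Benjamini-Hochberg p under 0.05, adjusted over all tested genes of a comparison, and SE is the log2 fold change divided by the root of F. Intervals are at 95%. CPM uses TMM-scaled totals (plain totals for marker sums). Counting error alone is covered by the limit from 3 counts.

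The genes and lists were chosen with earlier results of these data known. Named were the 10 genes, up to 4 called genes per list and comparison, the 5 genes most correlated with *CCR1* and *RGS16* and called neighbours, of which 1 is not reported here. Among the 10 genes, no identifier lay within 5% of the counts of any of the 8 that were checked (*S1PR1* and *RGS1* were not). Alternatives used DESeq2 1.42.0, limma 3.58.1, other scalings and filters, 2-group fits, each library left out in turn and a replicate block. Figures used matplotlib 3.10.9.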

Additional observations from a re-analysis of the deposited data

How the results depend on the processing

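The values of *CCR1* and *RGS16* below DMSO and the rises of *RGS2* with JQ1 and 18DS kept their direction under all 15 other settings each. The number of the 7 other genes called moved in a few. With JQ1 it was 1, and 2 with limma-voom (*RGS1* added). With BKM120 it was 1, 2 with library totals and 2 with the replicate block (*RGS19* added, edgeR adjusted p = 0.0474). It was 0 with DESeq2, which gave *RGS1* no adjusted p, and 0 at a mean of at least 5 CPM, where *RGS1* was not tested. The BKM120 call in the main fit was *RGS1*, so nothing is read from that count. With 18DS it was 1, and 2 with library totals. For 18DS against JQ1 it was 0, and 1 with limma-voom. Without 1 library at a time it was 1 to 2, 0 to 2, 1 to 2 and 0 in the 4 comparisons. The genes called in all were 504 to 609 for JQ1 (801 with all libraries), 482 to 1413 for BKM120 (1082), 1909 to 3026 for 18DS (2769) and 105 to 1027 for 18DS against JQ1 (548). For JQ1 the count left 1.5 times the full one without DMSO replicate 3 (529) and JQ1 replicates 2 (504) and 3 (507), and for BKM120 without DMSO replicate 1 (532) and BKM120 replicates 1 (552) and 3 (482). For 18DS against JQ1 it did so without any library, JQ1 replicates 1 to 3 (317, 123 and 105) and 18DS replicates 1 to 3 (1027, 215 and 159). The cause was not tested.

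Small values changed sign. With library totals *CXCR4* was -0.02 for 18DS against DMSO, and for 18DS against JQ1 *RGS10* was -0.0047 and *CCR10* -0.04. Without 1 library at a time the ranges were, with JQ1, -0.11 to 0.0011 for *CXCR4*, -0.12 to 0.17 for *RGS10* and -0.03 to 0.18 for *CCR10*. With BKM120 *RGS2* ranged from -0.51 to 0.03. With 18DS *RGS1* ranged from -0.11 to 0.51, *RGS10* from -0.07 to 0.21 and *CCR10* from -0.01 to 0.18. For 18DS against JQ1 *RGS16* ranged from -0.03 to 0.15, *RGS10* from -0.04 to 0.16 and *CCR10* from -0.05 to 0.07.

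Scaling moved the split of all calls. It was 536 higher and 546 lower for BKM120, 439 and 809 with library totals, and 734 and 431 with upper-quartile factors. It was 1313 and 1456 for 18DS, 898 and 2021, and 1675 and 1213. It was 313 and 235 for 18DS against JQ1, and 208 and 414 with library totals. No clear pairing by replicate number was seen. Of 18 same-numbered pairs 0 had a correlation of deviations over 0.1, and 5 of 12 libraries correlated best with their own number. The median correlation was 0.012 for same-numbered pairs and -0.007 for the 36 others. With 3 libraries per group this cannot show that the libraries were unpaired. With the replicate block 743, 1042, 2667 and 522 genes were called. Low counts limit *RGS1*, *RGS3*, *RGS17*, *RGS19* and *CCL27* most.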
